A study of Mus musculus with 9 samples.

Results

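The 37 genes described here mark blood lineages other than the monocyte: 3 progenitor genes, 5 transcription factors of the GATA, TAL and KLF1 network, 10 erythroid genes, 9 platelet and megakaryocyte genes, 5 mast cell and basophil genes and 5 eosinophil genes. They were taken by gene symbol, and all 37 were matched among the 55487 gene IDs of each table. RNA came from monocytes sorted from the spleens of untreated C57BL/6 mice, in 3 groups of 3 libraries: Ly6Clo monocytes of mice homozygous for loss of the Cebpa +37 element (Cebpa +37-/-, here KO), Ly6Clo monocytes of wild-type (WT) mice, and Ly6Chi monocytes of WT mice. Ly6Clo monocytes are the nonclassical, patrolling subset and Ly6Chi monocytes the classical one. C/EBP-alpha, the product of Cebpa, is a transcription factor of granulocyte and monocyte development, and the element is a control region named for its distance from the gene. Ly6Chi monocytes of KO mice were not analysed here. The labels give neither the ages of the mice nor whether replicates are separate animals, so p-values refer to the spread among these libraries. Part of that spread, or in the Ly6Clo groups all of it, may be technical. They also do not say how the deletion was made or in which cells it is present.

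Megakaryocytes, red cells and mast cells arise from progenitors that carry KIT and use GATA factors, neutrophils and monocytes depend on C/EBP factors, and basophils and eosinophils use factors of both families. GATA1 with TAL1 and KLF1 switches on the globin genes and the heme pathway in erythroid cells, and GATA2 acts in stem and progenitor cells, mast cells and basophils. The mouse spleen makes red cells as well as clearing them, and it stores platelets, so a sort for monocytes from this organ is taken from a suspension that also holds these cells. In bulk RNA, fewer cells of a type and less RNA per cell cannot be told apart.

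GATA factors bind DNA at short GATA motifs and KLF1 at CACCC boxes. Both were searched on both strands in the 250 bases before the RefSeq start of each gene (GRCm38.p6), as AGATAA or TGATAA or AGATAG or TGATAG and as CCACACCC or CCCCACCC. Of the 37 genes, 32 had a window. A GATA motif was present in 19 of the 32 windows (59.4%), beside 26.5% of all 32851 windows, and a CACCC box in 6 (18.8%), beside 11.8%. The windows below belong to an alpha-globin gene, a beta-globin gene, the first enzyme of heme synthesis, the erythroid factor KLF1, the mast cell carboxypeptidase and the transcription factor whose level passed a test below, with matches in capitals, read 5′ to 3′ on the strand of the gene. A match is a description of the letters and not of binding.
Hba-a2, chr11:32296242-32296491, plus strand: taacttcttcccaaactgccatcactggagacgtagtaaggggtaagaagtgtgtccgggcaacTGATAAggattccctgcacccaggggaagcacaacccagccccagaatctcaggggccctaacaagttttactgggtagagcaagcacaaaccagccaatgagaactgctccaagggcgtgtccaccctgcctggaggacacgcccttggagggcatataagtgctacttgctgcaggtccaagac
Hbb-bs, chr7:103827929-103828178, minus strand: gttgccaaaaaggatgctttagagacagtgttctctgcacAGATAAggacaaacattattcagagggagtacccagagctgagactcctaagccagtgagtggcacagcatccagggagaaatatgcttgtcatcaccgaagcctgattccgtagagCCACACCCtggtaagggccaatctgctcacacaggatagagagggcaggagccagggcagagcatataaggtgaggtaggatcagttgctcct
Alas2, chrX:150547167-150547416, plus strand: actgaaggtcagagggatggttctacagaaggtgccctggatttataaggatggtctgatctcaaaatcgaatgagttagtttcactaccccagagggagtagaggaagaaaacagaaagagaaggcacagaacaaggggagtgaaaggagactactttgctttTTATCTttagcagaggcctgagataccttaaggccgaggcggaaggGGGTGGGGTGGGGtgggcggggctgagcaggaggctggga
Klf1, chr8:84901732-84901981, plus strand: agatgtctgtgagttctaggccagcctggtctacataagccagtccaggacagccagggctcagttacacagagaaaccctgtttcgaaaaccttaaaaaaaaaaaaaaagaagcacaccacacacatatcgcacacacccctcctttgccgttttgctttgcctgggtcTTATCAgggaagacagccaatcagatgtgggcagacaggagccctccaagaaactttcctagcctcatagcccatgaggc
Cpa3, chr3:20242182-20242431, minus strand: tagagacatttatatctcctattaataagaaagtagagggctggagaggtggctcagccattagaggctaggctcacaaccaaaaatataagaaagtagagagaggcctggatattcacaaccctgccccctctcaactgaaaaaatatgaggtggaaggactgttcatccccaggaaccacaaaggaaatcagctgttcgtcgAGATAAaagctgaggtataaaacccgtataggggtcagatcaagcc
Gata2, chr6:88193641-88193890, plus strand: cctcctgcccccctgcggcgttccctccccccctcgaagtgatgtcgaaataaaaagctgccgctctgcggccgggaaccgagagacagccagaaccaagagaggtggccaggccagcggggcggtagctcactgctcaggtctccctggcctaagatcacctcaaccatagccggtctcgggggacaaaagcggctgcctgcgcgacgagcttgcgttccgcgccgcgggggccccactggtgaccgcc
The Hba-a1 window is identical to that of Hba-a2 over 247 bases after a shift of 3 bases. In Alas2 a pair of CACCC matches overlap on the opposite strand, and Gata2 has no match in this window.

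The globin genes come in near-identical copies, which limits how far single copies can be counted. Hba-a1 and Hba-a2 differ at 1 of 429 coding bases, and Hbb-bs and Hbb-bt at 1 of 444. The stretches of 60 coding bases around the difference are shown, with the differing base in capitals.
Hba-a1: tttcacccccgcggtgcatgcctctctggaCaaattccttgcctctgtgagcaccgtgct
Hba-a2: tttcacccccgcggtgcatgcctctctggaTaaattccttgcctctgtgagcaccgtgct
Hbb-bs: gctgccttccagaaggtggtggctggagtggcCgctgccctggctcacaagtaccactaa
Hbb-bt: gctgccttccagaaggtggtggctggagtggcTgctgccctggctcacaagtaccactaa
A read that lies within the coding sequence and does not cover the differing base does not tell the copies apart. The sources used here do not give how such reads were assigned, and sequence outside the coding part was not compared. Levels of single globin copies are therefore uncertain, and the sum over the 4 genes is given as well.

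KO replicate 2 and WT Ly6Clo replicate 2 were the deepest libraries, with 149773219 and 173703361 counts, while the other 7 held 48141590 to 60462708. A count of 3 therefore equals 0.0173 to 0.0623 CPM, that is, counts scaled to 1000000 per library. Cebpa stood at 4.03, 2.89 and 2.74 CPM in KO Ly6Clo, 18.1, 17.7 and 19.2 in WT Ly6Clo and 31.5, 51.3 and 51.6 in WT Ly6Chi libraries. The 5 Ly6Chi marker genes summed to 124 to 207 CPM in KO Ly6Clo, 141 to 153 in WT Ly6Clo and 6936 to 7668 CPM in WT Ly6Chi libraries. WT Ly6Chi replicate 3 stood apart in genes used to check sex. It had Xist at 30.0 CPM, with Ddx3y, Eif2s3y and Kdm5d at 0. The other 8 libraries had Xist at 0 to 0.0417 CPM and Ddx3y at 69.3 to 142 CPM. That library thus had the pattern of a female and the other 8 that of males, so the WT Ly6Chi libraries are not all from the same animal. The part of sex in the levels below was not tested. Levels below are CPM on library sizes scaled by TMM (trimmed mean of M values) and are given for replicates 1, 2 and 3 in that order. Levels are compared between genes only as TPM, which also accounts for gene length. A gene was called at an edgeR quasi-likelihood adjusted p under 0.05, over 18341 genes, 32 of them from the list. Gp1bb, Fcer1a, Il5ra, Prg2 and Epx did not pass the filter on low counts.

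**Figure D1:**
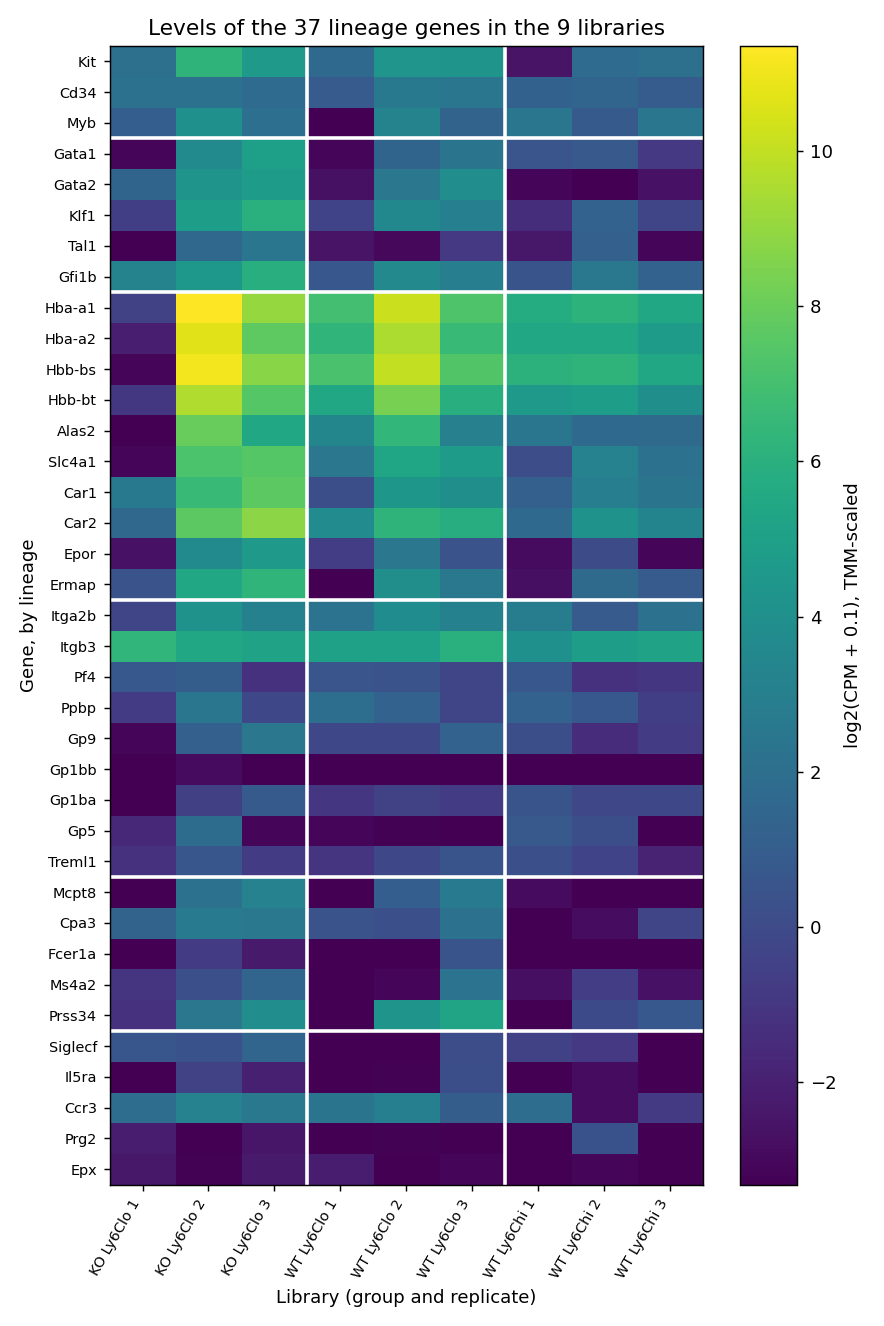
Levels of all 37 genes in the 9 libraries, as log2(CPM + 0.1) with TMM-scaled library sizes. Columns are libraries, rows are genes in blocks by lineage (progenitor, regulators, erythroid, platelet, mast and basophil, eosinophil), and lighter colours are higher. The erythroid block is brightest in KO replicates 2 and 3 and WT Ly6Clo replicate 2, and dark in KO replicate 1, where the globins summed to 1.22 CPM.

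Replicates of 1 group differed widely over the list. Of the 37 genes, 30 had their highest value of the 9 libraries in a KO library, 6 in a WT Ly6Clo library and 1, Prg2, in a WT Ly6Chi library. Those 30 were spread unevenly: KO replicate 2 held 15, KO replicate 3 held 14 and KO replicate 1 held 1. KO replicate 1 was the lowest of its group for 29 of the 37 genes, and WT Ly6Clo replicate 1 the lowest of its group for 23. The same counts were not made over all genes, so they do not show whether this pattern is particular to the list.

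Over the 32 tested members most fold changes were positive, and 1 passed the test in 1 comparison. The members were chosen with earlier results of these data known. Their shares and medians beside those of all genes therefore describe the list and are not independent support. Between KO Ly6Clo and WT Ly6Clo, 27 were positive and 5 negative (median 1.14 on the log2 scale, beside 0.03 over all genes), no member was called by edgeR (0.0709% of all genes were called) and 3 had an unadjusted p under 0.05 (Gp5, Gfi1b and Car1), beside 6.16% of all genes. DESeq2 called 1 member, Gp5, beside 1.55% of all genes, and limma-voom none. Siglecf, higher in KO, was the only member whose groups did not overlap, beside 5.21% of all genes in that direction.
In WT Ly6Clo against WT Ly6Chi, 27 were positive and 5 negative (median 1.92, beside 0.00), with no member called by edgeR, beside 3.51% of all genes, and 4 with an unadjusted p under 0.05 (Gata2, Gp5, Mcpt8 and Cpa3), beside 18.2%. DESeq2 called 2, Gata2 and Gp5, beside 11.2% of all genes, and limma-voom none. In a fit of only the 6 WT libraries, Gata2, Gp5 and Mcpt8 did not pass the low-count filter. Groups did not overlap for 6 members that were higher in WT Ly6Clo (the 4 globins, Alas2 and Cpa3), beside 13.6% of all genes, and for 1 that was lower (Gp1ba), beside 14.6%.
For KO Ly6Clo over WT Ly6Chi, 31 were positive and 1 negative (median 3.48, beside 0.04). Gata2 was the 1 member called, beside 4.52% of all genes, while DESeq2 called 7 (Gata2, Klf1, Gfi1b, Car1, Car2, Epor and Cpa3), beside 11.4%, and limma-voom none. An unadjusted p under 0.05 was found for 13, beside 16.9%, and 5 did not overlap (Cd34, Gata2, Gfi1b, Cpa3 and Siglecf, all higher in KO), beside 11.3%. Each pair of these comparisons shares the 3 libraries of 1 group. KO Ly6Clo and WT Ly6Chi libraries differ in both genotype and monocyte subset, which cannot be told apart in that comparison.

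Kit, the receptor for stem cell factor on progenitors and mast cells, had a wide range in all 3 groups. For Kit the KO Ly6Clo libraries held 4.12, 74.8 and 24.3 CPM, against 3.17, 20.3 and 19.3 in WT Ly6Clo and 0.0715, 3.46 and 4.24 in WT Ly6Chi. The WT Ly6Chi libraries were at or below 4.24 CPM, and both Ly6Clo groups reached from near that value to well above it. The Cd34 level in CPM was 4.46, 4.39 and 3.45 in KO Ly6Clo, 1.76, 6.01 and 5.36 in WT Ly6Clo and 2.22, 2.63 and 1.8 in WT Ly6Chi libraries. Cd34, a surface sialomucin of progenitors, was higher in every KO Ly6Clo library than in every WT Ly6Chi library, and WT Ly6Clo overlapped both. Myb stood at 1.95, 16.5 and 3.96 CPM in KO Ly6Clo, 0, 9.28 and 2.46 in WT Ly6Clo and 5.31, 1.71 and 5.31 in WT Ly6Chi libraries. Myb, a transcription factor that maintains progenitors, overlapped between all 3 groups and was at 0 in WT Ly6Clo replicate 1.

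Gata2 was the 1 member called in any comparison by the edgeR test. For Gata2 the KO Ly6Clo libraries held 2.51, 19.3 and 28.1 CPM, against 0.055, 5.51 and 14.4 in WT Ly6Clo and 0.0179, 0 and 0.0612 in WT Ly6Chi. In mean levels this was 16.6 ± 13 CPM in KO Ly6Clo and 0.0264 ± 0.0315 CPM in WT Ly6Chi libraries (SD, n = 3 each), and every KO library was above every WT Ly6Chi library. The 3 WT Ly6Chi libraries held 4 Gata2 counts in all, and the 3 KO libraries 4513. The pooled ratio of KO Ly6Clo over WT Ly6Chi was 653 (95% counting interval 255 to 2398). The log2 fold change was 9.22 (SE 2.04, edgeR adjusted p = 0.0382).
The library numbers fall into a run of 5 and a run of 4 libraries, and the sources used here do not give what they stand for. In the first run KO Ly6Clo held 2.51 and 19.3 CPM and WT Ly6Chi 0.0179 CPM, and in the second KO Ly6Clo held 28.1 CPM and WT Ly6Chi 0 and 0.0612 CPM. With the run as a term, the edgeR adjusted p was 0.0385. The call was lost when KO replicate 2 (edgeR adjusted p = 0.0806) or 3 (0.0950) was left out, WT Ly6Clo replicate 2 (0.0588) or 3 (0.0538), or WT Ly6Chi replicate 1 (0.152), 2 (0.147) or 3 (0.113), and by limma-voom (0.504). It also ended with KO replicate 2 and WT Ly6Clo replicate 2, the deepest libraries, both left out (0.115). DESeq2 gave an adjusted p of 4.42e-06.

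Gata2 in WT Ly6Clo monocytes also lay far above WT Ly6Chi in 2 of 3 libraries. The pooled ratio of WT Ly6Clo over WT Ly6Chi was 236 (1591 counts against 4, 95% counting interval 92.0 to 867), with a log2 fold change of 7.90 (SE 1.96) that missed the threshold (edgeR adjusted p = 0.0639). WT Ly6Clo replicate 1 held 3 Gata2 counts, at the level of WT Ly6Chi, so the groups overlapped. Of 17 alternatives, 5 called the difference, among them the fit without that library (edgeR adjusted p = 0.0256) and DESeq2 (adjusted p = 0.000174), and 12 did not, with adjusted p from 0.0513 to 0.61, the last by limma-voom. The fit of only the 6 WT libraries is not among them, because Gata2 did not pass the low-count filter there. Its main test in this comparison thus relied on the KO libraries to pass that filter.

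The other 4 regulators were, like Gata2, highest in KO replicate 3, and their order in the WT libraries varied. The Gata1 level in CPM was 0.0155, 12.6 and 31.5 in KO Ly6Clo, 0.0183, 2.57 and 4.87 in WT Ly6Clo and 1.36, 1.58 and 0.449 in WT Ly6Chi libraries. Gata1, the master factor of the erythroid and megakaryocytic lineages, was near 0 in the replicate 1 libraries of both Ly6Clo groups and highest in KO replicate 3. Klf1 stood at 0.558, 28.9 and 62.8 CPM in KO Ly6Clo, 0.678, 11.6 and 7.96 in WT Ly6Clo and 0.286, 2.38 and 0.735 in WT Ly6Chi libraries. Klf1, the erythroid factor of CACCC boxes, had the same order within KO. For Tal1 the KO Ly6Clo libraries held 0, 2.92 and 5.33 CPM, against 0.0733, 0.0265 and 0.439 in WT Ly6Clo and 0.0893, 2.21 and 0.0204 in WT Ly6Chi. Tal1, a partner of GATA1 in erythroid gene control, was detected above 1 CPM in KO replicates 2 and 3 and WT Ly6Chi replicate 2. The Gfi1b level in CPM was 9.27, 22.2 and 58.2 in KO Ly6Clo, 1.47, 12 and 7.71 in WT Ly6Clo and 1.3, 5.67 and 2.39 in WT Ly6Chi libraries. Gfi1b, a repressor of erythroid and megakaryocytic cells, was the only regulator other than Gata2 whose 3 KO libraries all exceeded the 3 WT Ly6Chi libraries. Gfi1b had a log2 fold change of 3.26 for KO Ly6Clo over WT Ly6Chi (SE 0.94) and an edgeR adjusted p of 0.102.

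**Figure D2:**
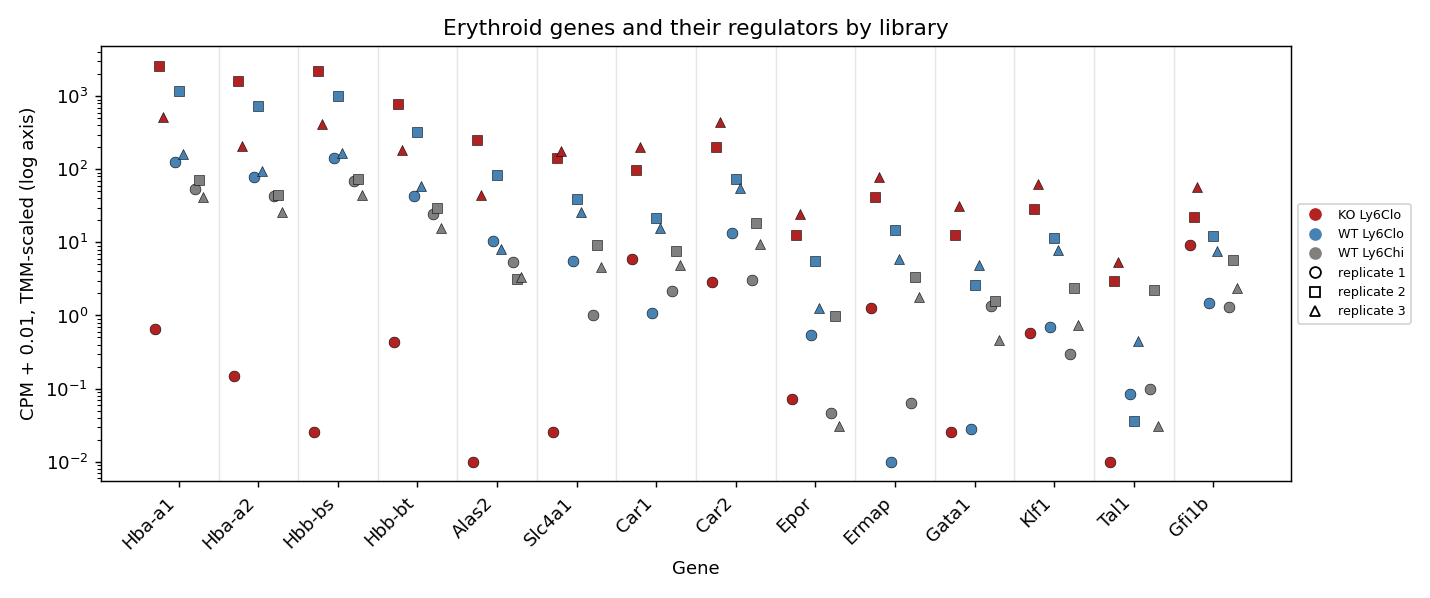
Levels of 14 erythroid genes and regulators by library, as CPM + 0.01 on a log axis. Colour marks the group and symbol shape the replicate, with no summary drawn. KO replicate 1 (red circles) lies at the bottom for the globins and Alas2, with KO replicate 2 at the top and WT Ly6Clo replicate 2 next.

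By TPM, a globin gene was the most abundant member in 8 of 9 libraries. In deposited TPM of KO replicate 2, Hba-a1, Hba-a2, Hbb-bs and Hbb-bt reached 10388, 7920, 9234 and 3620, against 335 for Alas2 and 270 for Car2. Hba-a1 and Hba-a2 encode the alpha chain of hemoglobin, and Hbb-bs and Hbb-bt its adult beta chain. Hba-a1 stood at 0.651, 2623 and 519 CPM in KO Ly6Clo, 128, 1166 and 160.0 in WT Ly6Clo and 54.7, 72.6 and 42 in WT Ly6Chi libraries. For Hba-a2 the KO Ly6Clo libraries held 0.139, 1643 and 209 CPM, against 77.6, 740.4 and 96 in WT Ly6Clo and 43.8, 43.9 and 26.4 in WT Ly6Chi. The Hbb-bs level in CPM was 0.0155, 2206 and 423 in KO Ly6Clo, 143, 1014 and 166 in WT Ly6Clo and 70.2, 73.6 and 44.7 in WT Ly6Chi libraries. These globin copies shared 1 order: KO replicate 2 was highest, WT Ly6Clo replicate 2 next, and KO replicate 1 lowest. Hbb-bt stood at 0.418, 792 and 181 CPM in KO Ly6Clo, 43.1, 329.9 and 58.8 in WT Ly6Clo and 24.8, 29.2 and 15.9 in WT Ly6Chi libraries. The 4 globin genes together stood at 1.22, 7264 and 1332 CPM in KO Ly6Clo, 392, 3250 and 481 in WT Ly6Clo and 193, 219 and 129 CPM in WT Ly6Chi libraries. KO replicate 1 held 79 globin counts, against at least 6321 in each of the other 8 libraries. All 3 WT Ly6Clo libraries were above all 3 WT Ly6Chi libraries, whereas KO Ly6Clo overlapped both.

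The other erythroid genes were also lowest of the KO group in replicate 1 but did not all peak in the same library. For Alas2 the KO Ly6Clo libraries held 0, 250.1 and 44.8 CPM, against 10.5, 82.9 and 8.2 in WT Ly6Clo and 5.36, 3.11 and 3.33 in WT Ly6Chi. Alas2, the erythroid enzyme of the first step of heme synthesis, followed the globins with its peak in KO replicate 2. The Slc4a1 level in CPM was 0.0155, 145 and 177 in KO Ly6Clo, 5.64, 39.2 and 26.3 in WT Ly6Clo and 1, 9.09 and 4.59 in WT Ly6Chi libraries. Car1 stood at 5.92, 96.8 and 200.0 CPM in KO Ly6Clo, 1.06, 21.7 and 15.8 in WT Ly6Clo and 2.16, 7.71 and 4.88 in WT Ly6Chi libraries. For Car2 the KO Ly6Clo libraries held 2.9, 204 and 445 CPM, against 13.4, 74.9 and 56.2 in WT Ly6Clo and 3.09, 18.5 and 9.57 in WT Ly6Chi. Slc4a1 encodes the band 3 anion exchanger of the red cell membrane, and Car1 and Car2 encode carbonic anhydrases of red cells; all 3 peaked in KO replicate 3 and not in KO replicate 2. The Epor level in CPM was 0.062, 12.5 and 24.5 in KO Ly6Clo, 0.531, 5.6 and 1.26 in WT Ly6Clo and 0.0357, 0.979 and 0.0204 in WT Ly6Chi libraries. Ermap stood at 1.26, 42.2 and 78.9 CPM in KO Ly6Clo, 0, 15 and 5.9 in WT Ly6Clo and 0.0536, 3.31 and 1.75 in WT Ly6Chi libraries. Epor, the erythropoietin receptor, and Ermap, an erythroid membrane protein, peaked in KO replicate 3 too. Thus 5 of the 10 erythroid genes were highest in KO replicate 2 and 5 in KO replicate 3, and all 10 were lowest of their group in KO replicate 1. In WT Ly6Clo, replicate 2 was the highest for all 10. Alas2 overlaps Apex2 and Cd34 overlaps Gm16897 on the opposite strand, Car1 holds the pseudogene Gm16399, and the sources used here do not say whether counting used strand.

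The mix of erythroid transcripts therefore differed between libraries of a group. The globins made up 10.8% (95% exact interval 8.61 to 13.2%) of the counts of the 10 erythroid genes in KO replicate 1, 90.6% (90.6 to 90.7%) in KO replicate 2 and 57.9% (57.6 to 58.2%) in KO replicate 3. In WT Ly6Clo the shares were 92.6% (92.3 to 93.0%), 93.1% (93.1 to 93.2%) and 80.9% (80.4 to 81.3%). WT Ly6Chi libraries had 94.3% (93.9 to 94.7%), 83.7% (83.0 to 84.3%) and 84.2% (83.4 to 85.1%). KO replicates 1 and 3 had the lowest shares of the 9 libraries. These shares are of counts and do not account for gene length, so they serve to compare libraries and not genes. The ratio of globin over Car1 plus Car2, in TPM, was 0.274, 59.9 and 5.12 in KO Ly6Clo, 81.5, 89.7 and 17.9 in WT Ly6Clo and 86.3, 21.2 and 21.9 in WT Ly6Chi libraries. Alpha over beta globin, in contrast, lay between 1.05 and 1.64 in TPM in all 9 libraries. Its highest value was in KO replicate 1, from only 79 globin counts. There Hbb-bs had 1 count against 27 for Hbb-bt, whereas the ratio of Hbb-bs over Hbb-bt counts was 2.33 to 3.32 in the other libraries. The intervals of the shares cover counting error only.

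Between groups, none of the erythroid genes was called by edgeR. Between KO Ly6Clo and WT Ly6Clo, the log2 fold changes of Car1 (2.97, SE 1.24, unadjusted p = 0.0402) and the regulator Gfi1b (2.08, SE 0.89, unadjusted p = 0.0454) missed the adjusted threshold (edgeR adjusted p = 0.768 and 0.796), and both were higher in KO in 2 of 3 libraries than in any WT Ly6Clo library. For KO Ly6Clo over WT Ly6Chi, 6 of the 10 had an unadjusted edgeR p under 0.05, beside 16.9% of all genes: Alas2, Slc4a1, Car1, Car2, Epor and Ermap, with log2 fold changes from 4.36 for Car1 to 5.17 for Epor and adjusted p from 0.120 to 0.293. When KO replicate 1 was left out of that comparison, edgeR called 9 members, beside 4.17% of all genes: Gata2, Klf1, Hba-a1, Hbb-bs, Hbb-bt, Alas2, Slc4a1, Car1 and Car2. That library was the lowest of the KO group for all 10 erythroid genes, so leaving it out raises the KO level. With KO replicate 2 or 3 left out, edgeR called 0 members, and 503 and 441 of all genes. With any WT library left out it called 0 or 1, either Gata2 or Cpa3, and no erythroid gene. The WT Ly6Clo over WT Ly6Chi fold changes were positive for all 10, with a median of 2.72 on the log2 scale, and 5 of the 10 (the globins and Alas2) did not overlap between these groups, beside 13.6% of all genes in that direction.

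**Figure D3:**
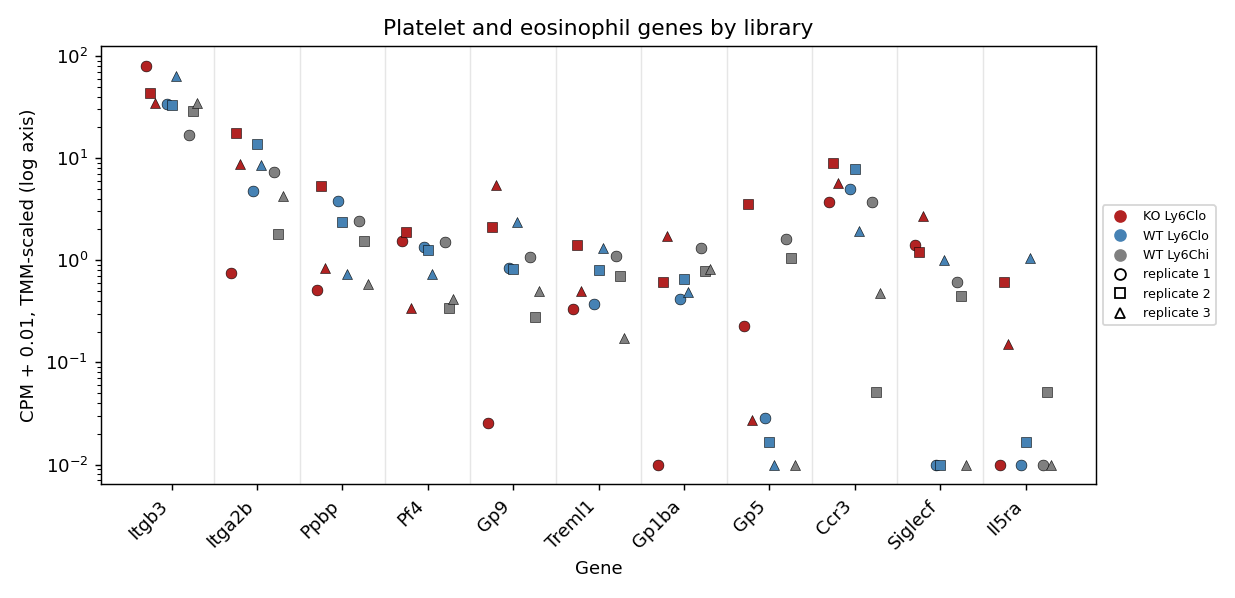
Levels of 8 platelet genes and 3 eosinophil genes by library, as CPM + 0.01 on a log axis, with colour for the group and symbol shape for the replicate. Itgb3 lies between 16.7 and 79.9 CPM in all libraries, while Gp5 spans from 0 to 3.53 CPM.

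The platelet and megakaryocyte genes did not move as a block. For Itgb3 the KO Ly6Clo libraries held 79.9, 43.7 and 34.8 CPM, against 33.6, 33.1 and 63.9 in WT Ly6Clo and 16.7, 29 and 35 in WT Ly6Chi. Itgb3, the beta-3 integrin chain, which also pairs with other alpha chains in monocytes, was the most abundant by TPM in 8 of 9 libraries of this set. The Itga2b level in CPM was 0.744, 17.8 and 8.72 in KO Ly6Clo, 4.78, 13.8 and 8.6 in WT Ly6Clo and 7.31, 1.79 and 4.28 in WT Ly6Chi libraries. Itga2b, its alpha partner in the platelet fibrinogen receptor, was lowest in KO replicate 1, where Itgb3 was highest. Pf4 stood at 1.53, 1.89 and 0.333 CPM in KO Ly6Clo, 1.34, 1.25 and 0.725 in WT Ly6Clo and 1.5, 0.333 and 0.408 in WT Ly6Chi libraries. For Ppbp the KO Ly6Clo libraries held 0.496, 5.26 and 0.824 CPM, against 3.81, 2.34 and 0.725 in WT Ly6Clo and 2.39, 1.54 and 0.571 in WT Ly6Chi. Pf4 and Ppbp encode chemokines of platelet granules; their groups overlapped and no library was above 5.26 CPM. The Gp9 level in CPM was 0.0155, 2.12 and 5.47 in KO Ly6Clo, 0.825, 0.802 and 2.35 in WT Ly6Clo and 1.07, 0.271 and 0.49 in WT Ly6Chi libraries. Gp1ba stood at 0, 0.596 and 1.72 CPM in KO Ly6Clo, 0.403, 0.643 and 0.477 in WT Ly6Clo and 1.32, 0.771 and 0.816 in WT Ly6Chi libraries. Gp9 and Gp1ba encode chains of the receptor for von Willebrand factor, and Gp1ba was lower in all 3 WT Ly6Clo than in all 3 WT Ly6Chi libraries. For Treml1 the KO Ly6Clo libraries held 0.325, 1.39 and 0.491 CPM, against 0.366, 0.795 and 1.3 in WT Ly6Clo and 1.09, 0.688 and 0.163 in WT Ly6Chi. Treml1, a receptor of platelet granules, overlapped in all 3 groups. The Gp5 level in CPM was 0.217, 3.53 and 0.0175 in KO Ly6Clo, 0.0183, 0.00663 and 0 in WT Ly6Clo and 1.61, 1.04 and 0 in WT Ly6Chi libraries. Gp5, another chain of that receptor, was concentrated in few libraries: 503 of its 518 KO counts were in replicate 2, and the 2 WT Ly6Clo counts stood in separate libraries. Gp1bb had 5 counts in all, every one in KO replicate 2.

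The Gp5 counts gave ratios with wide intervals. The pooled ratio of KO Ly6Clo over WT Ly6Clo was 253 (95% counting interval 69.6 to 2093), and of WT Ly6Clo over WT Ly6Chi it was 0.00847 (0.00102 to 0.0312), from 2 counts against 140. Neither was called by edgeR (adjusted p = 0.642 and 0.189), and the groups overlapped in both, with WT Ly6Chi replicate 3 at 0. In fits of only the 6 libraries compared, Gp5 did not pass the low-count filter and was not tested. The Itgb3 difference of KO Ly6Clo over WT Ly6Chi was 0.97 on the log2 scale (SE 0.41, edgeR adjusted p = 0.271).

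**Figure D4:**
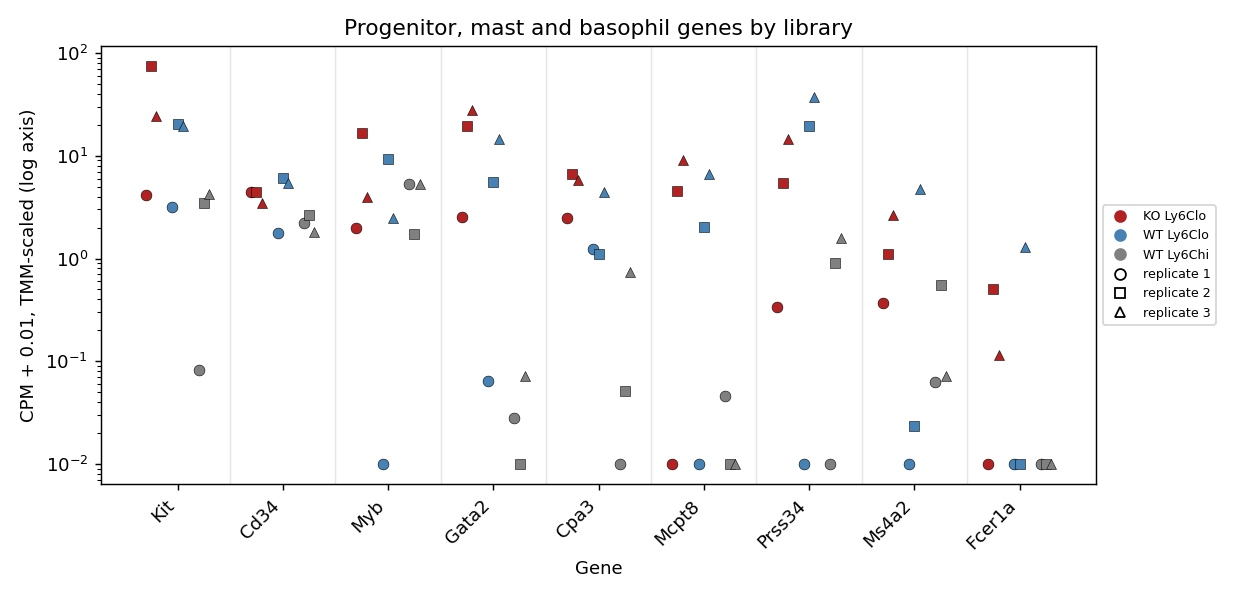
Levels of progenitor, mast and basophil genes by library, as CPM + 0.01 on a log axis, with colour for the group and symbol shape for the replicate. Points at the bottom edge are 0 counts. WT Ly6Chi libraries lie below the KO libraries for Gata2 and Cpa3.

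The mast and basophil genes were low in all WT Ly6Chi libraries and reached at most 37.6 CPM elsewhere. Mcpt8 stood at 0, 4.52 and 9.15 CPM in KO Ly6Clo, 0, 2.03 and 6.6 in WT Ly6Clo and 0.0357, 0 and 0 in WT Ly6Chi libraries. Mcpt8, a protease of mouse basophils, had 0 counts in replicate 1 of both Ly6Clo groups and 2 counts in the whole WT Ly6Chi group. For Prss34 the KO Ly6Clo libraries held 0.325, 5.45 and 14.5 CPM, against 0, 19.3 and 37.6 in WT Ly6Clo and 0, 0.896 and 1.57 in WT Ly6Chi. Prss34, also a protease of mouse basophils, was highest in WT Ly6Clo replicate 3 and absent from the counts of WT Ly6Clo replicate 1 and WT Ly6Chi replicate 1. The Cpa3 level in CPM was 2.45, 6.69 and 5.8 in KO Ly6Clo, 1.23, 1.09 and 4.39 in WT Ly6Clo and 0, 0.0417 and 0.735 in WT Ly6Chi libraries. Cpa3, a mast cell carboxypeptidase, was the only gene of this set present in all 6 Ly6Clo libraries at 1 CPM or more, and every Ly6Clo library of either genotype exceeded every WT Ly6Chi library. Ms4a2 stood at 0.356, 1.1 and 2.63 CPM in KO Ly6Clo, 0, 0.0133 and 4.71 in WT Ly6Clo and 0.0536, 0.542 and 0.0612 in WT Ly6Chi libraries. For Fcer1a the KO Ly6Clo libraries held 0, 0.498 and 0.105 CPM, against 0, 0 and 1.28 in WT Ly6Clo and 0, 0 and 0 in WT Ly6Chi. Ms4a2 and Fcer1a encode the beta and alpha chains of the high-affinity IgE receptor, and both were highest in WT Ly6Clo replicate 3. In WT Ly6Clo, replicate 3 was highest for all 5 genes, whereas for the erythroid genes it was replicate 2.

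The pooled ratio of KO Ly6Clo over WT Ly6Chi for Mcpt8 was 338 (1167 counts against 2, 95% counting interval 93.3 to 2793), and that of WT Ly6Clo over WT Ly6Chi was 193 (652 counts against 2, 53.3 to 1600). Neither passed (edgeR adjusted p = 0.164 and 0.190), and a library of each Ly6Clo group was at 0. In fits of only the 6 libraries compared, Mcpt8 did not pass the low-count filter and was not tested. Cpa3 had a log2 fold change of 4.27 (SE 1.44, edgeR adjusted p = 0.161) in KO Ly6Clo over WT Ly6Chi and of 3.11 (SE 1.37, adjusted p = 0.274) in WT Ly6Clo over WT Ly6Chi.

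No eosinophil gene was above 8.99 CPM in any library. The Siglecf level in CPM was 1.41, 1.21 and 2.7 in KO Ly6Clo, 0, 0 and 0.992 in WT Ly6Clo and 0.607, 0.438 and 0 in WT Ly6Chi libraries. Siglecf, an eosinophil lectin that binds sialic acid, was higher in each KO library than in each WT Ly6Clo and each WT Ly6Chi library, and was at 0 in WT Ly6Clo replicates 1 and 2. Neither difference was called by edgeR, and its highest KO value was 2.70 CPM. Ccr3 stood at 3.67, 8.99 and 5.75 CPM in KO Ly6Clo, 4.98, 7.88 and 1.91 in WT Ly6Clo and 3.68, 0.0417 and 0.469 in WT Ly6Chi libraries. Ccr3, the eotaxin receptor, overlapped between all groups. For Prg2 the KO Ly6Clo libraries held 0.124, 0 and 0.0877 CPM, against 0, 0.00663 and 0 in WT Ly6Clo and 0, 1.19 and 0 in WT Ly6Chi. Prg2, the eosinophil major basic protein, had 57 of its 71 counts in WT Ly6Chi replicate 2. Il5ra, the receptor chain for interleukin 5, had 151 counts over the 9 libraries, 86 of them in KO replicate 2 and 54 in WT Ly6Clo replicate 3. Epx, the eosinophil peroxidase, had 22 counts in all and at most 7 in a library.

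To ask which lineage transcripts vary together inside a group, 11 genes were correlated as log2(CPM + 0.1) minus the group mean over the 9 libraries, in 55 pairs, each tested by an exact permutation of libraries within groups (two-sided, smallest possible p 0.0046). No pair passed the Benjamini-Hochberg adjustment (smallest adjusted p 0.493), and 45 of the 55 r values were positive. Pearson's r was 0.90 for Gata1 and Car2 (exact permutation p = 0.0463, Spearman's rho 0.87, p = 0.0324) and 0.85 for Gata1 and Gata2 (exact p = 0.0417, rho 0.88, p = 0.0370). Hbb-bs and Itga2b had r = 0.90 (exact p = 0.0278, rho 0.75, p = 0.0694), Kit and Car2 r = 0.76 (exact p = 0.0324, rho 0.60, p = 0.157) and Myb and Itga2b r = 0.65 (exact p = 0.0139, rho 0.68, p = 0.0463). All 5 had a Benjamini-Hochberg adjusted p of 0.493 for r, and of 0.637 to 0.685 for rho.

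With the 2 libraries farthest from the median of the first gene left out, r was 0.15 for Gata1 and Car2, 0.19 for Gata1 and Gata2 and 0.47 for Hbb-bs and Itga2b. The libraries left out were KO replicate 1 and WT Ly6Clo replicate 1 for Gata1, and KO replicates 1 and 2 for Hbb-bs. Leaving out the most extreme libraries narrows the range of the first gene, which can by itself lower r. The lower values therefore do not show that r rested on these libraries. With KO replicate 1 alone left out, r was 0.67 for Gata1 and Car2, 0.91 for Gata1 and Gata2 and 0.57 for Hbb-bs and Itga2b. With WT Ly6Clo replicate 1 alone left out, it was 0.92 for Gata1 and Car2 and 0.90 for Gata1 and Gata2. With the 2 farthest libraries left out, r was 0.56 for Kit and Car2 and 0.88 for Myb and Itga2b. Hbb-bs and Car2, the globin and carbonic anhydrase anchors, had r = 0.88 (exact p = 0.134, rho 0.90, p = 0.0185, adjusted p = 0.637). Pf4 had a negative r in 7 of its 10 pairs, with a smallest exact permutation p of 0.204, for Pf4 and Gata2. Itga2b and Myb had a positive r in all 10. The pairs of a gene share its values, so their signs are not independent.

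**Figure D5:**
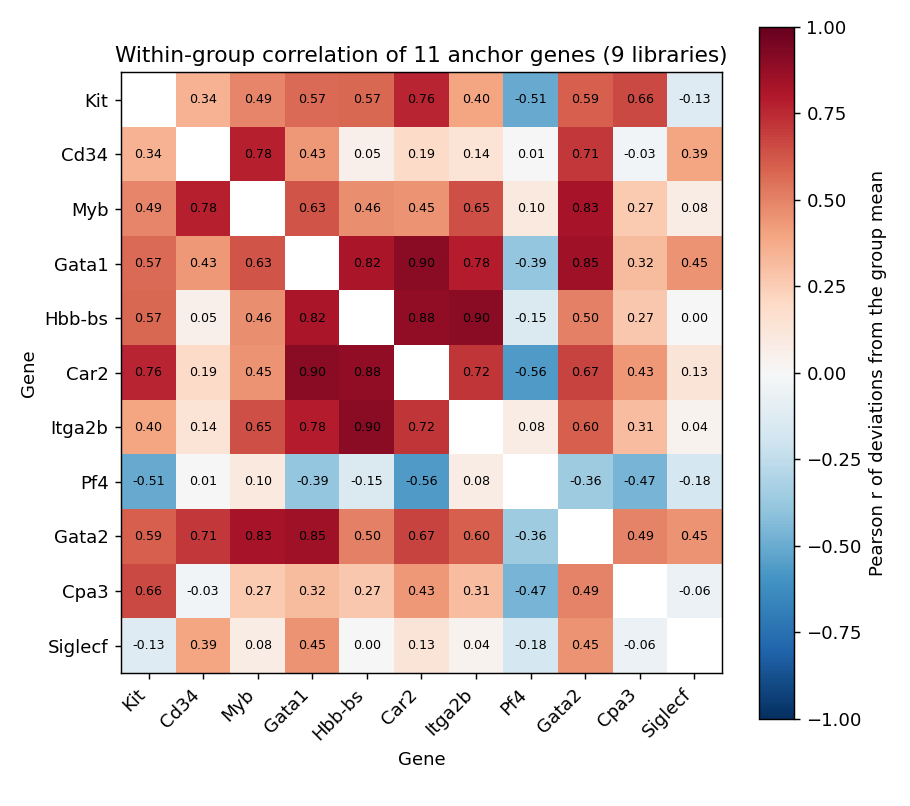
Pearson r of within-group deviations for 11 genes over 9 libraries, red for positive and blue for negative. Gata1, Hbb-bs, Car2 and Itga2b form the reddest block, with r from 0.72 to 0.90, and the Pf4 row is mostly blue.

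Some markers of other cells varied with the erythroid genes inside a group, and others did not. KO replicate 2 and WT Ly6Clo replicate 2, with the highest globin levels, were also the deepest libraries, whereas KO replicate 3, highest for the 5 regulators, was not a deep one. The 5 NK cell genes summed to 8.23, 241 and 56.3 CPM in KO Ly6Clo, 40.1, 181 and 118 in WT Ly6Clo and 11.3, 43.9 and 30.1 CPM in WT Ly6Chi libraries, and in KO replicate 1 only 3 of 5 were above the floor of 3 counts, with Prf1 and Eomes at 0. The 5 B cell genes summed to 24.2 to 76.8 CPM, 53.4 to 131 CPM and 22.6 to 49.7 CPM in these groups, and Pax5 was at 0 in WT Ly6Chi replicate 1. The sums of the NK cell genes and of the B cell genes were each lowest in the replicate 1 library of each group. The same held for the T cell genes that follow. The 5 T cell genes summed to 21.1 to 93.2 CPM in KO Ly6Clo, 35.7 to 116 in WT Ly6Clo and 59.7 to 100.4 CPM in WT Ly6Chi libraries, and the 5 genes of conventional dendritic cells to 30.0 to 114, 15.7 to 136 and 73.1 to 192 CPM, with all 5 of each list above the floor in every library. The 8 genes of dividing cells, all above the floor, summed to 135, 445 and 620 CPM in KO Ly6Clo, 167, 241 and 222 in WT Ly6Clo and 412, 309 and 297 CPM in WT Ly6Chi libraries. Dividing-cell genes were lowest in replicate 1 of both Ly6Clo groups but highest in replicate 1 of WT Ly6Chi.

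Other lists had a narrower range or differed mainly by subset. The 5 genes of red pulp macrophages, which take up aged red cells, summed to 618, 667 and 532 CPM in KO Ly6Clo, 645, 696 and 558 in WT Ly6Clo and 379, 363 and 444 CPM in WT Ly6Chi libraries, with 4 or 5 of 5 above the floor. Most of each sum was Adgre1, at 235 to 506 CPM. Between WT Ly6Clo and WT Ly6Chi, 4 of the 5 were higher in WT Ly6Clo and 1, Cd163, was lower. Cd163 stood at 0.155, 0.407 and 0 CPM in KO Ly6Clo, 0, 3.85 and 2.46 in WT Ly6Clo and 6.18, 7.54 and 16.1 in WT Ly6Chi libraries. The sum is therefore not a measure of these macrophages. The 4 genes of plasmacytoid dendritic cells summed to 40.7 to 60.9 CPM, 46.3 to 79.0 CPM and 57.6 to 79.4 CPM in these groups, with 2 to 4 of 4 above the floor. The 6 neutrophil genes summed to 9.30 to 29.7 CPM in KO Ly6Clo, 4.11 to 5.97 in WT Ly6Clo and 272 to 562 CPM in WT Ly6Chi libraries, with 4 to 6 of 6 above the floor and Retnlg at 0 in 4 libraries. In WT Ly6Chi nearly all of the sum was S100a8, S100a9 and Mmp8, at 69.2 to 343 CPM. Ly6g was at 0.0204 to 0.411 CPM there. Cxcr2 went the other way, at 2.42, 1.49 and 1.37 CPM in WT Ly6Clo and 1.05, 0.167 and 0.0408 in WT Ly6Chi libraries. The sum is therefore not a measure of neutrophils. The part of these lists in the levels above was not tested.

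Genes of the same lineages outside the list were mostly not called. Of 30 tested erythroid companions (membrane, heme and iron genes), none was called in KO Ly6Clo against WT Ly6Clo or in WT Ly6Clo against WT Ly6Chi, and 2 were higher in KO Ly6Clo than WT Ly6Chi: the mitochondrial glycine carrier Slc25a38 (log2 fold change 0.99, SE 0.23, edgeR adjusted p = 0.0479) and the heme enzyme Uros (1.18, SE 0.28, adjusted p = 0.0483). Nfe2, a transcription factor of red cells and platelets, overlapped between all groups, at 241 to 288 CPM in KO Ly6Clo, 238 to 344 in WT Ly6Clo and 244 to 307 CPM in WT Ly6Chi. Of 21 platelet companions 1 was called, Vwf, which encodes von Willebrand factor. It stood at 103, 125 and 94.3 CPM in KO Ly6Clo, 64.2, 43.1 and 65.0 in WT Ly6Clo and 8.90, 12.98 and 13.02 CPM in WT Ly6Chi libraries. Relative to WT Ly6Chi, Vwf was higher by 3.21 on the log2 scale in KO Ly6Clo (SE 0.25, edgeR adjusted p = 0.00038) and by 2.30 in WT Ly6Clo (SE 0.24, edgeR adjusted p = 0.00216). The groups did not overlap. Thbs1, the platelet companion of highest level, was not called and went the other way. Its levels were 0.031, 10.9 and 8.56 CPM in KO Ly6Clo, 6.21, 52.4 and 8.62 in WT Ly6Clo and 67.8, 518 and 996 in WT Ly6Chi libraries. Nbeal2, the next in level, overlapped between all groups. In WT Ly6Clo against WT Ly6Chi, 12 of the 21 fold changes were positive and 9 negative.

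Of 7 tested eosinophil companions, the ribonuclease genes Ear2 (log2 fold change 2.24, SE 0.28, edgeR adjusted p = 0.00454) and Ear1 (1.99, SE 0.42, adjusted p = 0.0367) were higher in WT Ly6Clo than in WT Ly6Chi monocytes. In KO Ly6Clo against WT Ly6Chi, Ear2 was higher (1.26, SE 0.27, edgeR adjusted p = 0.0349), and Cebpe, a C/EBP factor of granulocytes, was lower (log2 fold change -6.90, SE 1.59, adjusted p = 0.0441). Cebpe was low in both Ly6Clo groups: 0, 0.0771 and 0.0526 CPM in KO and 0.385, 0.00663 and 0.0191 in WT. In WT Ly6Chi libraries it stood at 5.43, 5.90 and 5.57 CPM. Ear1 and Ear2 belong to a multigene family, so their counts are less certain. Of 13 mast and basophil companions, the integrin chain gene Itgb7 (-1.03, SE 0.19, edgeR adjusted p = 0.0205) and the transcription factor Mitf (-2.41, SE 0.48, adjusted p = 0.0305) were lower in WT Ly6Clo than in WT Ly6Chi monocytes. Of 17 progenitor companions, the granule protease gene Prtn3 (-7.87, SE 1.66, edgeR adjusted p = 0.0373) and the granulocyte-monocyte progenitor gene Ms4a3 (-6.20, SE 1.39, adjusted p = 0.0471) were also lower in WT Ly6Clo. Of the 88 companion genes tested, edgeR called 5 in KO Ly6Clo against WT Ly6Chi, beside 4.52% of all genes, 7 in WT Ly6Clo against WT Ly6Chi, beside 3.51%, and none in KO Ly6Clo against WT Ly6Clo, beside 0.0709%. An unadjusted edgeR p under 0.05 was found for 36, 27 and 9 of them in these comparisons, beside 16.9%, 18.2% and 6.16% of all genes. The companion lists were also chosen with earlier results of these data known, so these shares are not independent support.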

How the data were processed

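RNA of 40000 to 50000 sorted monocytes per library was sequenced from 10 ng with the SMARTer Ultra Low kit, per the labels' protocols, and no UMIs are named, so counting intervals cover counting error only. The deposited tables hold whole-number read counts per gene, not normalized, with CPM, FPKM and TPM beside them, per the file headers. The CPM and FPKM values deposited by the authors were used in no test, and the deposited TPM only to compare levels between genes. Without giving roles, GRCm38 (mm10), Salmon 0.8.2, featureCounts 1.4.6-p5 of Subread, STAR 2.5.1a, limma and edgeR are listed per the submitters' processing notes.

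Symbols came from GENCODE M21 (99.38% of IDs matched); 36 of the 37 members had the same coordinates there, Klf1 being the exception. Counts were fitted in R 4.3.3 with edgeR 4.0.16: filterByExpr (minimum count 10), TMM, 1 term per group over all 9 libraries, the quasi-likelihood test and Benjamini-Hochberg adjustment over 18341 genes. The SE comes from the quasi-likelihood F statistic. Alternatives were RLE scaling, other filters, DESeq2 1.42.0, limma-voom (limma 3.58.1), a 6-library fit, the replicate block, the library-number run and each library left out. Correlations used an exact within-group permutation in Python 3.11.15. The scripts were tested on simulated data. Promoter windows are RefSeq's, and coding stretches are GENCODE's.

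All 37 members were accounted for by the naming rule: those with at least 1 TPM in a library get their level in every library, and the others their counts. Up to 4 called genes of each companion list are named per comparison, those of smallest adjusted p, or a few of highest level where none passed. The members and gene lists were chosen with earlier results of these data known.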

Additional observations from a re-analysis of the deposited data

How the results depend on the processing

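The direction of the 20 member fold changes with an unadjusted edgeR p under 0.05 was the same in every alternative run. In 320 of their 355 alternative fits the side of the threshold was kept, in 26 a call was gained and in 9 it was lost, all 9 for Gata2 in KO Ly6Clo against WT Ly6Chi. No anchor gene pair passed in any of 12 alternatives.

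Members called in KO Ly6Clo against WT Ly6Clo numbered 0, and 1 by DESeq2. In WT Ly6Clo against WT Ly6Chi they numbered 0, and 1 without the low-count filter, 1 with a filter of 1 CPM in 3 libraries and 2 by DESeq2, and 0 to 1 with a library left out. In KO Ly6Clo against WT Ly6Chi they numbered 1, and 5 without the filter, 7 by DESeq2, 0 by limma-voom, 0 without both deep libraries (KO replicate 2 and WT Ly6Clo replicate 2) and 0 to 9 with a library left out. That last depth alternative was chosen after seeing the data.

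Over all genes, 13 were called in KO Ly6Clo against WT Ly6Clo, and 54 without the filter, 27 with the 1 CPM filter, 277 by DESeq2, 0 in the 6-library fit, 0 without both deep libraries and 2 to 21 with a library left out. In WT Ly6Clo against WT Ly6Chi 643 were called, and 1960 by DESeq2, 217 without both deep libraries and 239 to 847 with a library left out. In KO Ly6Clo against WT Ly6Chi 829 were called, and 1951 by DESeq2, 456 without both deep libraries and 379 to 818 with a library left out. The causes were not tested.

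The replicate numbers were not taken as pairing: same-numbered libraries had correlations of deviations from 0.004 to 0.33, over 0.1 in 5 of 9 pairs, and differently numbered libraries from -0.277 to 0.139. The replicate 1 libraries correlated at 0.237 to 0.33 with each other and negatively with all others, while KO replicate 3 correlated best with WT Ly6Clo replicate 2 (0.107). With the replicate block, 0, 2 (Gata2 and Kit) and 4 (Gata2, Gfi1b, Kit and Ermap) members and 13, 949 and 977 genes were called in the 3 comparisons. In shallow libraries 3 counts equal up to 0.0623 CPM, so Mcpt8, Fcer1a and Il5ra at 0 are below detection and not shown to be absent.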
